A study of Mus musculus with 24 samples.

Results

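The transcripts of OT-I CD8+ T cells recovered from the small intestine were compared with those of the same kind of cell recovered from the lung, on day 4 after transplantation. The 10 arrays were chosen by their labels, 5 labelled as small intestine and 5 as lung, out of 24 arrays in the series. The cells came from irradiated female act-mOVA mice on a C57Bl/6 background, 8 to 16 weeks old, which express membrane-bound ovalbumin under an actin promoter and so throughout the body. Both groups of recipients had 11 Gy of whole-body irradiation in 2 fractions, followed by bone marrow and splenocytes from C57Bl/6 OT-I donors, whose CD8+ T cells carry a receptor for an ovalbumin peptide. CD45.1 marked the OT-I cells, while the recipients and the other graft cells carried CD45.2. The lung and intestine were dissociated and CD45.1-bearing cells were taken with magnetic beads, so that both groups hold what the beads kept, without a further sort named in the labels. The other arrays held OT-I cells from liver and blood on day 4 (5 arrays each) and from the graft on day 0 (4 arrays). The labels do not say that each array came from its own animal.

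In this mouse setting of graft-versus-host disease the transferred T cells meet their antigen in lymphoid tissue, divide, gain effector functions and enter the organs. T cells enter the gut wall mainly with the integrin pair of alpha4 and beta7 chains and the chemokine receptor CCR9, whereas selectin ligands, which need fucosyltransferases, help T cells roll along inflamed vessels. The 2 organs also differ in the cells that surround a T cell: alveolar macrophages and surfactant-making epithelium in the lung, Paneth cells, absorptive epithelium and plasma cells in the small intestine.

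Values are log2 intensities relative to the 75th percentile of each array's gene probes, so a value of 0 means a signal at that percentile, and a difference is intestine minus lung. Between 26.1% and 38.6% of gene probes were well above background on the intestine arrays and between 23.9% and 33.7% on the lung arrays. Correlations across genes, which are not independent replicates, ran from 0.731 to 0.964 between intestine arrays and from 0.850 to 0.961 between lung arrays. Per the file headers, the 5 day 4 slides each carried 1 intestine, 1 lung, 1 liver and 1 blood array with the same number. Intestine array 4 and lung array 4 had the highest values on the first principal component, at 95.2 and 62.1. Intestine array 5 had the lowest, at -78.3, and the remaining arrays lay between -45.4 and 33.04. The p-values measure the spread between these arrays, whose number limits the precision.

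No gene passed an adjusted p of 0.05 between intestine and lung (limma, Benjamini-Hochberg over 9509 genes, 5 arrays against 5, 0% called, smallest adjusted p = 0.108). At an unadjusted p under 0.05 there were 461 genes (4.85%), of which 184 were higher (1.94%) and 277 lower in intestine (2.91%). This count was 774 with the replicate number, which is also the slide, as a block, and 804 when all 24 arrays shared 1 estimate of the spread. The 5 intestine arrays and the 5 lung arrays did not overlap for 86 genes (0.904%), 37 of them higher in intestine (0.389%) and 49 lower (0.515%). When all 24 arrays shared 1 estimate of the spread, 36 genes were called (0.379%), 11 higher (0.116%) and 25 lower in intestine (0.263%). The spread within the intestine group was the widest of the 5 groups, with a median SD per gene of 0.605 in intestine, 0.489 in lung, 0.432 in liver, 0.420 in blood and 0.300 in the graft. The fit of all 24 arrays thus drew on groups of narrower spread, and its p-values may be too small for intestine against lung. The median of all genes was -0.12, and 64.8% of genes were lower in intestine. Since nothing was called with the 10 arrays, the genes below are named as marker or T cell genes fixed by a rule, or were chosen after their values were seen, and the differences are given as measured. In these bulk samples, fewer cells of a type and less RNA per cell cannot be told apart.

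The genes that define a CD8+ T cell were well above background on at least 9 of the 10 arrays, and their levels overlapped between the organs. Cd8a, the alpha chain of the CD8 co-receptor, had 3.85, 2.92, 4.96, 2.15 and 5.23 in intestine, against 4.31, 3.93, 4.02, 2.89 and 3.94 in lung. The 2 groups overlapped and the difference was 0.0052 (95% interval -1.22 to 1.23, adjusted p = 0.999). Cd8b1, the beta chain, averaged 2.79 ± 1.44 in intestine and 3.43 ± 0.73 in lung (SD, n = 5 each), a difference of -0.64. The CD3 chains were closer together: Cd3e averaged 5.62 ± 0.78 in intestine and 6.07 ± 0.31 in lung, Cd3d averaged 6.13 ± 0.79 in intestine and 6.45 ± 0.36 in lung and Cd3g averaged 4.72 ± 0.87 in intestine and 5.11 ± 0.32 in lung (SD, n = 5 each). Ptprc, which encodes CD45, averaged 1.37 ± 1.06 in intestine and 1.16 ± 0.86 in lung, and Cd4, the co-receptor of helper T cells, averaged 0.0059 ± 0.49 in intestine and 0.12 ± 0.32 in lung. With these probes none of the 7 genes came under an unadjusted p of 0.05. A second, dimmer probe of Cd4 differed by 2.74, at an unadjusted p under 0.05, so that the value of Cd4 depends on the probe.

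The widest differences toward lung were in genes of alveolar macrophages, the cells that clear surfactant from the airspaces. Chil3, a chitinase-like protein that these cells secrete, was measured at chr3:105950485-105950544 (mm9) and had -2.94, -2.54, -2.66, -2.41 and 1.80 in intestine, against 6.71, 6.50, -2.16, 8.24 and 7.83 in lung. Lung array 3 sat with the intestine arrays and intestine array 5 lay above the other 4. The difference was -7.17 (95% interval -11.02 to -3.32, adjusted p = 0.37). Marco, a scavenger receptor, had -1.22, -1.95, -1.94, -1.10 and -1.73 in intestine, against 3.63, 4.10, -2.41, 6.42 and 4.42 in lung, with lung array 3 below every intestine array. Chil3, Marco and Ear2, an enzyme gene described below, were also well above background on all 4 arrays of the day 0 graft. Chil3 was so on 1 liver and 1 blood array, Marco on 2 of each and Ear2 on none. Siglecf, a sialic acid-binding receptor of alveolar macrophages and eosinophils, had 1.16, 0.34, -1.76, -2.46 and -1.15 in intestine, against 1.52, 1.53, -2.26, 4.20 and 3.42 in lung. Of 27 genes of alveolar and tissue macrophages, 20 passed the filter on signal, 7 of them through the lung arrays alone, which favours a higher level there for these 7. Of the 20, 13 were lower (against 64.8% of all genes) and 7 higher in intestine, with differences from -7.17 to 2.89. By this count the list was close to all genes. At an unadjusted p under 0.05, 9 of the 20 were lower (against 2.91% of all genes). Since 7 of the 20 passed through the lung arrays alone, this count is a description. The macrophage genes C1qc and Csf1r, chosen after their values were seen, were higher in intestine on slides 1 and 2. Their differences there were 7.52 and 8.47 for C1qc and 5.59 and 7.34 for Csf1r. On slides 3 to 5 they were -0.51, 1.38 and -2.44 for C1qc and -0.50, -4.88 and -4.51 for Csf1r.

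The eosinophil-associated ribonucleases, small secreted enzymes of the ribonuclease A family, were prominent in this set. Ear1 had -3.04, -2.73, -2.84, -2.55 and -4.12 in intestine, against 3.74, 3.09, -2.36, 6.31 and 5.46 in lung. It was not well above background on any intestine array and well above it on 4 lung arrays. Ear10 had 0.31, 0.66, -2.82, -2.53 and -4.10 in intestine, against 4.62, 3.94, -2.31, 6.98 and 6.21 in lung. Intestine arrays 1 and 2 carried some Ear10 signal, while intestine arrays 3 to 5 and lung array 3 did not. Ear12 had 0.011, 0.26, -2.77, -2.43 and -4.01 in intestine, against 3.88, 2.93, -2.24, 5.98 and 5.57 in lung, Ear2 had 1.66, 1.77, -2.45, -2.18 and -3.74 in intestine, against 5.35, 5.05, -2.01, 7.32 and 7.18 in lung and Rnase2a had 0.0082, 0.42, -2.70, -2.45 and -3.89 in intestine, against 3.93, 2.90, -2.24, 6.09 and 5.51 in lung, with the same order of arrays in each. These genes are near-identical copies that lie close together on mouse chromosome 14, and parts of their probes are the same. For that reason 3 probes are printed 5′ to 3′, with every run of at least 12 bases shared with another of the 3 in capitals.

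Ear1 probe, chr14:44396709-44396768 (mm9, minus strand): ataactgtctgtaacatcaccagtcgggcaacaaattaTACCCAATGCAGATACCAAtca
Ear10 probe, chr14:44500615-44500674 (mm9, minus strand): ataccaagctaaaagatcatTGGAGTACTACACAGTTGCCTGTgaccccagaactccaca
Ear12 probe, chr14:44680899-44680958 (mm9, plus strand): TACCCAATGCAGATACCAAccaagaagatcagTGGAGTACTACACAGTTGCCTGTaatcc
The Ear12 probe shares a run of 23 bases with the Ear10 probe and a run of 19 with the Ear1 probe, and 42 of its 60 bases lie in such runs, so its signal cannot be counted as independent of theirs. The Ear1 and Ear10 probes have no more than 7 bases in a row in common. Shared runs depend on where each probe lies in its gene. No probe was compared with the transcripts of the other genes, so the Ear1 and Ear10 signals were not shown to be independent.

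Genes of lung epithelium followed the same arrays. Sftpc, surfactant protein C of alveolar type II cells, had -0.72, -0.37, -0.35, -0.45 and -1.50 in intestine, against 4.60, 6.99, 0.045, 5.30 and 4.51 in lung. All 5 lung arrays lay above all 5 intestine arrays, but lung array 3 by the smallest margin. Sftpc was also well above background on 3 of the 4 day 0 graft arrays, and on no liver or blood array. Sftpc was not well above background on any intestine array and was at least 30.7-fold lower there (adjusted p = 0.221). Such a bound sets the mean of the brighter group against, on each array of the dimmer group, the higher of the lowest well-detected signal and the probe's own signal. Here and for all genes below, it compares means and makes no allowance for the spread between arrays. Sftpd and Sftpa1, the surfactant collectins, were at least 7.21-fold and 2.18-fold lower in intestine. Ear1 and Krt79, a keratin listed here with the macrophage genes, were at least 16.6-fold and 14.4-fold lower. Of 10 lung epithelial genes that passed the filter, 2 of them through the lung arrays alone, 9 were lower in intestine (against 64.8% of all genes). Of the 10, 4 were lower at an unadjusted p under 0.05 (against 2.91% of all genes). The fourth was Napsa, the aspartic protease that processes surfactant protein B, with a difference of -1.49.

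Further genes, chosen after their values were seen, were also lower in intestine on average. Lung array 3 was the lowest lung array for Lpl and Fabp1. Lpl, lipoprotein lipase, had -2.89, -2.60, -2.74, -2.46 and -4.02 in intestine, against 0.67, 0.34, -2.21, 2.56 and 1.48 in lung, and was at least 2.59-fold lower in intestine. Cidec, a lipid droplet protein, was at least 2.56-fold lower, Atp6v0d2, a subunit of the vacuolar proton pump, at least 5.3-fold, and Fpr2, a formyl peptide receptor of phagocytes, at least 2.53-fold. Fabp1, a fatty acid-binding protein listed here as a marker of absorptive intestinal epithelium, had -2.75, 0.063, -2.36, -2.10 and -3.71 in intestine, against 0.45, 1.81, -2.05, 4.27 and 2.82 in lung. It was thus lower, not higher, in the cells from intestine, and was well above background on 1 intestine and 4 lung arrays. The neutrophil genes S100a8 and S100a9 had differences of -2.33 and -3.02, and the haptoglobin gene Hp had -2.56. Of 20 tested neutrophil and monocyte genes 15 were lower in intestine, against 64.8% of all genes, these 3 at an unadjusted p under 0.05 (against 2.91% of all genes). The median was -0.49, and 0 with genes below background throughout an organ at their bounds, and the list summed to 153 to 291 on the intestine arrays and to 150 to 286 on the lung arrays.

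**Figure D1:**
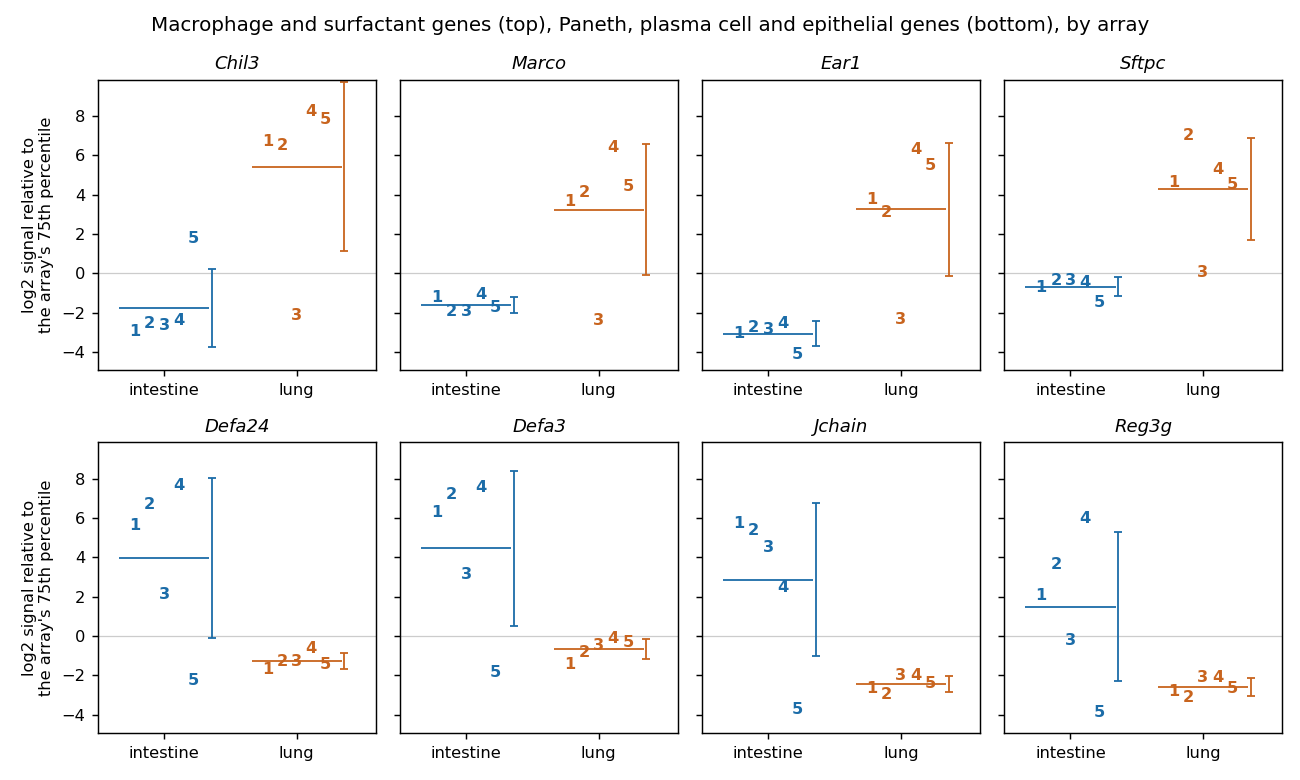
Log2 signal relative to each array's 75th percentile for 8 genes, with intestine left of lung. Each digit is 1 array, numbered as in the labels, the horizontal line is the mean and the bar to its right 1 SD (n = 5). Lung array 3 lies near the intestine arrays for Chil3, Marco, Ear1 and Sftpc, and intestine array 5 lies below the lung arrays for Defa24, Defa3, Jchain and Reg3g.

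In the other direction, the widest differences were in genes of Paneth cells, the secretory cells at the base of small intestinal crypts whose alpha-defensins kill bacteria. Defa24 had 5.64, 6.69, 2.14, 7.64 and -2.26 in intestine, against -1.72, -1.29, -1.29, -0.61 and -1.46 in lung. Intestine array 5 was below every lung array, and the other 4 intestine arrays were above every lung array. By the means, Defa24 was at least 22.8-fold higher in intestine, a bound that leaves out the spread between arrays. The limma difference had a 95% interval of 1.93 to 8.56 on the log2 scale (adjusted p = 0.46). Defa3 had 6.30, 7.22, 3.12, 7.55 and -1.84 in intestine, against -1.43, -0.83, -0.50, -0.12 and -0.35 in lung, a difference of 5.11, with the same array standing apart. Reg3g, an antibacterial lectin of gut epithelium, had 2.04, 3.62, -0.25, 5.96 and -3.89 in intestine, against -2.84, -3.14, -2.12, -2.12 and -2.66 in lung. Its intestine arrays were in the same order as for Defa24, and it was at least 4.11-fold higher in intestine. Of 15 alpha-defensin genes that passed the filter on signal, 12 did so through the intestine arrays alone, which favours a higher level there for those 12. Of the 15, 9 were not well above background on any lung array. Defa10 was lower by 0.27 and the other 14 were higher. Of the 8 genes of the Paneth list that passed, 5 did so through intestine alone, and 7 of the 8 were higher.

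The alpha-defensins too are near-identical copies, and the probes of Defa24 and Defa3 are printed 5′ to 3′ for the same reason, with shared runs of at least 12 bases in capitals.

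Defa24 probe, with no position in the files: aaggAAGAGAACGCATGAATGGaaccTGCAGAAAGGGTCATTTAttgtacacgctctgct
Defa3 probe, chr8:22427899-22427958 (mm9, plus strand): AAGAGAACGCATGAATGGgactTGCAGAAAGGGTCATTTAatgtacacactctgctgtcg
The 2 probes share 36 of 60 bases in such runs. Defa31 was the only one of the 15 with non-overlapping groups (against 0.904% of all genes), at 1.37, 2.91, 0.58, 3.66 and -0.029 in intestine, against -0.74, -1.26, -1.04, -2.27 and -1.32 in lung. Its second tested probe differed by only 0.16, so that the gene's value depends on the probe. The 3 probes of Defa3 differed by 5.11, 7.18 and 5.42.

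The remaining Paneth markers did not all follow. Itln1, an intestinal lectin, had 1.25, 2.49, -0.91, 3.73 and -1.63 in intestine, against -1.23, -1.39, -1.04, -0.64 and -0.94 in lung, and was at least 2.88-fold higher in intestine by this probe, while the other probes differed by 5.27 and 6.27. Lyz1, the Paneth lysozyme, had 4.63, 5.71, -0.012, 6.72 and -3.71 in intestine, against 3.66, 3.71, -2.01, 6.05 and 5.92 in lung. It was high on 3 intestine and 4 lung arrays, and its close copy Lyz2 is a macrophage gene. The intestinal epithelial gene Lgals4, a galectin, had 2.35, 5.61, 0.56, 6.54 and -1.22 in intestine, against -0.92, -0.69, -1.46, -0.69 and -0.99 in lung, a difference of 3.71. Among the 10 tested intestinal epithelial genes 5 were higher and 5 lower in intestine, with a median of 0.40.

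Genes of antibody-secreting cells were also higher on 3 or 4 of the 5 intestine arrays. Jchain, which joins secreted IgA and IgM into polymers, had 5.72, 5.37, 4.52, 2.48 and -3.73 in intestine, against -2.66, -2.95, -2.02, -2.02 and -2.43 in lung. The 4 intestine arrays were above every lung array and intestine array 5 was below all of them. Jchain was at least 10.6-fold higher in intestine (adjusted p = 0.456). Cd79a, a signalling chain of the B cell receptor, had 2.36, 1.89, 0.96, -2.61 and -4.14 in intestine, against -3.13, -3.40, -2.40, -2.36 and -2.92 in lung, with intestine array 4 at the lung level, and was at least 1.18-fold higher. A second probe of Cd79a differed by -0.22, so that its value depends on the probe. Of 14 tested genes of plasma and B cells 9 were higher (against 35.2% of all genes), with a median of 0.27, and 0 with bounds. Jchain and Cd79a, 2 of the 14, were higher at an unadjusted p under 0.05 (against 1.94% of all genes). Ms4a1, the B cell surface marker CD20, was not well above background on any of the 10 arrays. On the day 0 graft, Ms4a1, Jchain and Cd79a were each well above background on all 4 arrays.

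**Figure D2:**
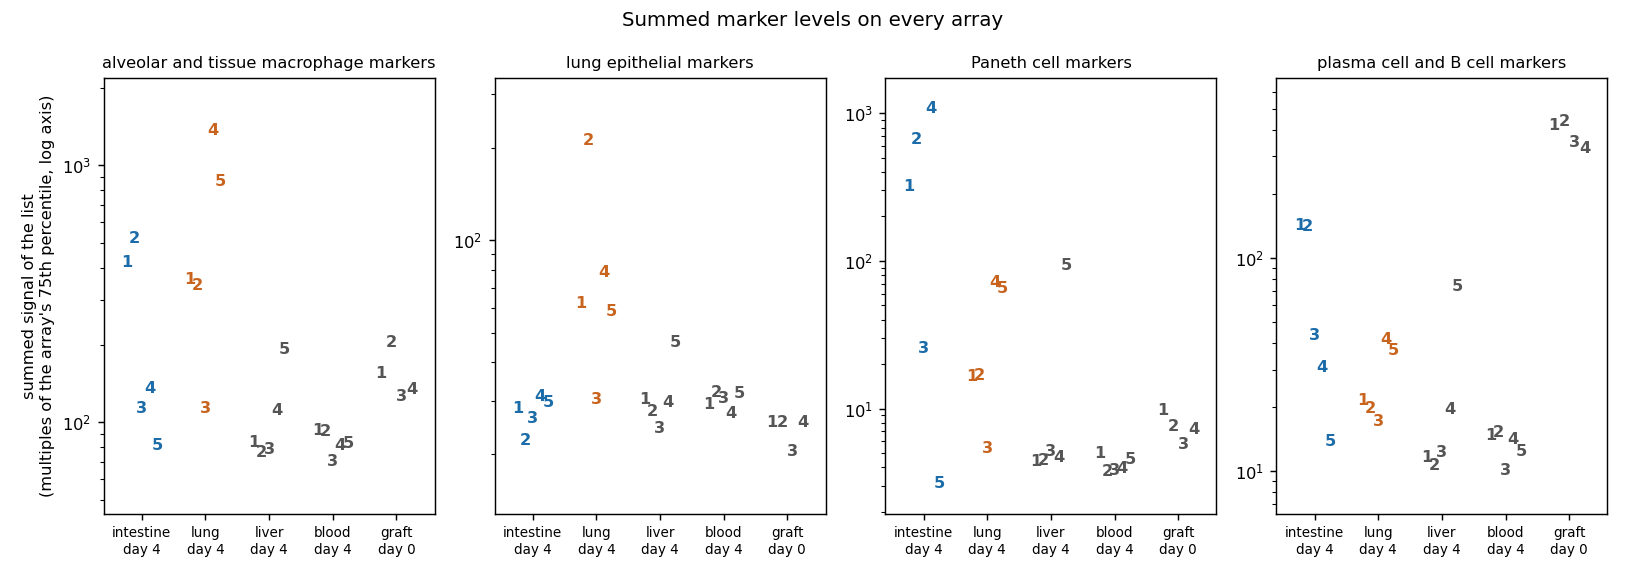
Summed linear signal of all list members on the array, in multiples of the array's 75th percentile on a log axis, for 4 lists of other cells. Each digit is 1 array, with intestine first, then lung, liver, blood and the day 0 graft. The Paneth sum was 25.6 to 1076 on 4 intestine arrays and 3.10 on intestine array 5, against 5.32 to 72.0 on the lung arrays.

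The summed signal of whole marker lists shows how unevenly these transcripts were spread over the arrays. The macrophage list summed to 81.4 to 519 times the 75th percentile on the intestine arrays, with a median of 136, and to 113 to 1361 on the lung arrays, with a median of 358. The lung epithelial list summed to 22.1 to 30.8 on the intestine arrays and to 30.1 to 211 on the lung arrays. The Paneth list summed to 3.10 to 1076 on the intestine arrays, with a median of 319, and to 5.32 to 72.0 on the lung arrays, with a median of 16.9. The plasma and B cell list summed to 13.7 to 141 on the intestine arrays and to 17.1 to 41.5 on the lung arrays. On the day 0 graft arrays this list summed to 326 to 434 and the macrophage list to 126 to 205. The lung epithelial list summed there to 20.5 to 25.5 and the Paneth list to 5.70 to 9.77. Of the 64 defining markers of the lists of other cells, 60 are on the array, and 18 of these were not well above background on any of the 10 arrays. Those 18 include Epcam of epithelium, Pecam1 of endothelium, Col1a1 and Pdgfra of fibroblasts, Cpa3 of mast cells, Ncr1 of NK cells and Alb of hepatocytes. In the dendritic cell list Flt3 was well above background on 3 intestine arrays and no lung array, H2-Aa on 2 and 0, and Zbtb46 on 1 and 0. The erythroid list summed to 1.82 to 5.24 on the intestine arrays and to 2.72 to 76.9 on the lung arrays, the highest on lung array 3.

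Single arrays decided which genes were called. Without lung array 3, 22 genes were called (0.231%), 3 higher and 19 lower in intestine (0.0315% and 0.2%). Chil3 (adjusted p = 0.00137), Ear1 (3.52e-04), Marco (3.52e-04) and Sftpc (3.52e-04) were among the 19, as were Ear2, Ear10, Ear12, Rnase2a, Krt79, Lpl, Cidec, Atp6v0d2, Fpr2, Flvcr2, Ms4a8a, Kazald1, Sftpa1 and Sftpd. Wfdc21 was the other one. Lung array 3 was the lowest lung array for Chil3, Ear1, Marco and Sftpc, so leaving it out had to widen their differences. The filter also let 7 macrophage and 2 lung epithelial genes pass through the lung arrays alone. These calls are therefore descriptions. Chil3 had adjusted p 0.00137 to 0.906 over 23 alternatives. Without intestine array 5, 37 genes were called (0.389%), 22 higher and 15 lower in intestine (0.231% and 0.158%). The 22 included 14 of the 15 alpha-defensins, Jchain (adjusted p = 5.40e-04) and Reg3g (0.0488). Intestine array 5 was the lowest intestine array for Defa24, Defa3, Jchain and Reg3g, so leaving it out had to widen their differences. Of the 15 alpha-defensins, 12 passed the filter through the intestine arrays alone, so these calls too are descriptions. The array weights are left out of such ranges here and below because their fit did not converge. Only Gjb2 and Ramp3 were called both without lung array 3 and without intestine array 5.

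**Figure D3:**
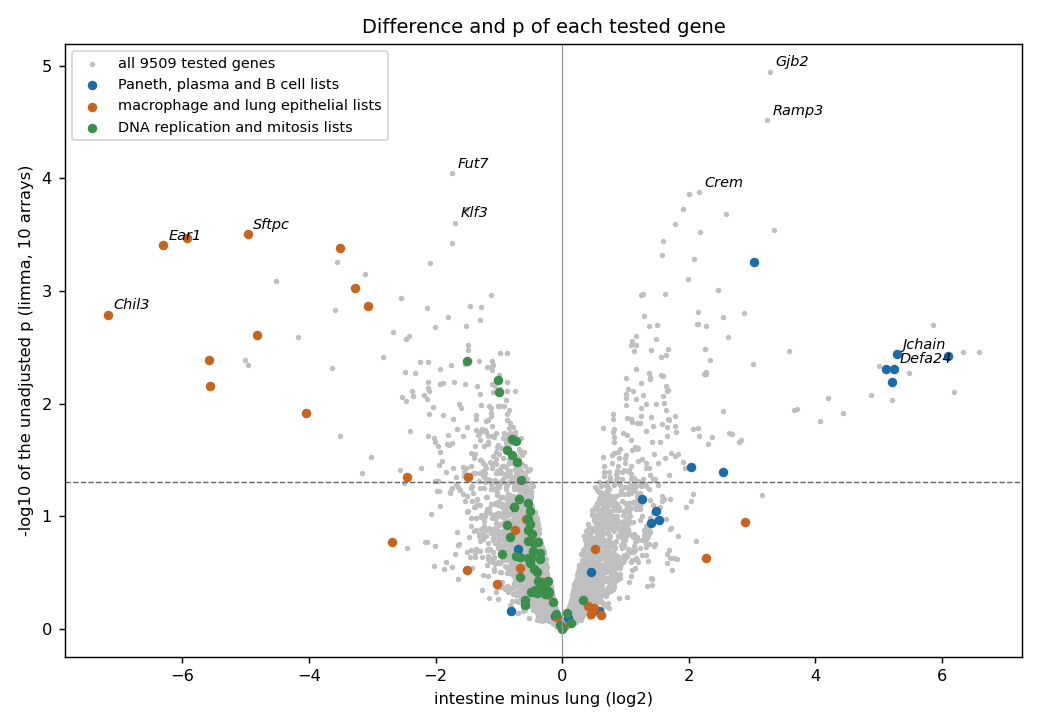
Log2 difference (intestine minus lung) on the x axis against -log10 of the unadjusted limma p on the y axis, 1 point per tested gene, with 3 pairs of lists in colour. The dashed line marks an unadjusted p of 0.05. Chil3, Ear1 and Sftpc lie far to the left and Jchain and Defa24 far to the right, while Gjb2 and Ramp3 have the smallest p.

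The smallest p-values of the comparison belonged to Gjb2 and Ramp3, both higher in intestine. Ramp3, which joins the calcitonin receptor-like receptor to form a receptor for adrenomedullin, was measured at chr11:6577424-6577483 (mm9) and had 4.72, 4.28, 5.63, 2.74 and 3.44 in intestine, against 1.09, 1.14, 1.52, 0.31 and 0.55 in lung. Every intestine array was above every lung array, the difference was 3.24 (95% interval 2.16 to 4.32, adjusted p = 0.145), and a second probe gave 3.67. With the replicate number, which is also the slide, as a block, Ramp3 was the only gene called (adjusted p = 0.0457, 0.0105% of genes, adjusted p 0.00768 to 0.588 over 24 alternatives). On the other arrays of the series its median was 2.17 in liver, 0.75 in blood and 0.33 in the graft. Gjb2, the gap junction protein connexin 26, was measured at chr14:57717629-57717688 and had 1.50, 1.07, 1.47, 0.36 and -0.86 in intestine, against -2.84, -3.13, -2.07, -2.15 and -2.65 in lung. It was well above background on all intestine arrays and no lung array, and was at least 2.37-fold higher in intestine (adjusted p = 0.108, adjusted p 7.71e-04 to 0.48 over 23 alternatives). Crem, a transcription factor of the cyclic AMP response, had 2.49, 1.81, 3.26, 1.48 and 2.74 in intestine, against 0.71, -0.49, 0.52, -0.26 and 0.50 in lung, with no overlap between the groups. Its difference was 2.16 (95% interval 1.31 to 3.01, adjusted p = 0.221), and a second probe gave 1.86. Pde5a, which breaks down cyclic GMP, was well above background on all intestine arrays and no lung array and was at least 2.81-fold higher.

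Genes of homing to the gut wall lay on both sides. Ccr9, the receptor for the gut chemokine CCL25, had 1.87, 0.40, 2.37, -0.11 and 0.13 in intestine, against -1.31, -1.11, 1.05, -0.26 and -0.997 in lung. It was higher in intestine on all 5 slides and well above background on 5 intestine arrays and 1 lung array, but the groups overlapped (difference 1.46, 95% interval 0.19 to 2.72, adjusted p = 0.866). Itga4, the alpha4 chain of the gut-homing integrin, had 3.81, 2.92, 4.41, 1.99 and 5.08 in intestine, against 5.37, 4.59, 5.36, 4.22 and 5.13 in lung, and was lower in intestine on all 5 slides, by 1.29 on average. Its partner Itgb7 averaged 6.58 ± 0.71 in intestine and 7.14 ± 0.31 in lung and the retinoid receptor Rxrb averaged 4.40 ± 0.80 in intestine and 4.76 ± 0.25 in lung (SD, n = 5 each). Of the 5 tested genes of this list 1 was higher and 4 were lower in intestine, with a median of -0.53. Ccr7, the receptor for lymph node chemokines, had 6.06, 6.21, 7.48, 5.29 and 5.70 in intestine, against 5.36, 5.18, 4.58, 4.03 and 5.46 in lung, with intestine array 4 the only one below the highest lung arrays. Klf2, a transcription factor of egress from lymphoid tissue, averaged 4.61 ± 0.78 in intestine and 5.35 ± 0.90 in lung (SD, n = 5 each).

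Fut7, the fucosyltransferase that makes ligands for the endothelial selectins, was lower on every intestine array than on any lung array. It was measured at chr2:25281802-25281861 (mm9) and had 0.55, -0.035, 0.92, 0.40 and 1.24 in intestine, against 2.07, 2.21, 2.19, 2.90 and 2.41 in lung. The groups did not overlap and the difference was -1.74 (95% interval -2.39 to -1.09, adjusted p = 0.221). Fut7 was called without intestine array 5 and in the fit of all 24 arrays (adjusted p 0.0152 to 0.588 over 24 alternatives). On the other arrays its median was 1.56 in liver, 2.68 in blood and 1.89 in the graft. Of 9 tested genes of selectin ligand synthesis it was the only one under an unadjusted p of 0.05 by the probe of highest mean (against 4.85% of all genes). The scaffold glycoproteins that carry these ligands, Selplg and Spn, averaged 5.64 ± 0.88 in intestine and 5.73 ± 0.32 in lung for Selplg and 5.39 ± 0.36 in intestine and 5.81 ± 0.30 in lung for Spn (SD, n = 5 each). Second probes of Spn and of the adhesion receptor Cd44 differed by -1.81 and -1.14, both at an unadjusted p under 0.05, where the probes of highest mean differed by -0.43 and -0.22.

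Among chemokine receptors Ccr10, which binds chemokines of skin and mucosal epithelium, had -0.29, -2.67, -2.78, -2.52 and -0.24 in intestine, against 1.29, -0.18, 1.89, 0.66 and 0.62 in lung, with no overlap and a difference of -2.55. It was the only one of 10 tested receptors with an unadjusted p under 0.05 (against 4.85% of all genes). Cxcr3, the receptor for interferon-induced chemokines, had 3.72, 1.80, 5.35, 2.58 and 5.45 in intestine, against 5.32, 4.33, 6.05, 4.67 and 5.58 in lung, lower in intestine on all 5 slides (difference -1.41, 95% interval -2.91 to 0.087). Cxcr6 averaged 4.16 ± 1.81 in intestine and 4.40 ± 0.78 in lung (SD, n = 5 each). No integrin chain of the 11 tested came under an unadjusted p of 0.05, with Itgb2 at a difference of -0.73 and Itgam at -0.43. Of 10 tested genes tied to tissue residency 5 were higher and 5 lower, and 2 were higher at an unadjusted p under 0.05 (against 1.94% of all genes). These were Litaf, a membrane trafficking protein, at 5.07, 5.15, 5.42, 3.12 and 4.85 in intestine, against 3.50, 3.33, 2.82, 3.61 and 3.43 in lung, and Rgs1, a brake on chemokine receptor signalling, at 4.62, 4.79, 2.90, 1.86 and 3.71 in intestine, against 2.84, 3.54, 1.16, 0.88 and 2.30 in lung. The most abundant members of this list, Notch1 and Nr4a1, differed by -0.25 and -0.15.

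Among secreted factors, Tnfsf11 and Xcl1 stood out toward intestine. Tnfsf11 encodes RANKL, a TNF family cytokine that acts on dendritic cells and osteoclast precursors, and had 3.16, 2.69, 2.62, 0.39 and 2.34 in intestine, against 0.54, 0.35, -1.80, -0.33 and 0.13 in lung. Intestine array 4 was the 1 intestine array within the lung range, and the difference was 2.46 (95% interval 1.23 to 3.70, adjusted p = 0.323). Xcl1, a chemokine that attracts cross-presenting dendritic cells, had 4.83, 4.50, 5.02, 4.29 and 4.27 in intestine, against 3.63, 3.83, 2.47, 2.91 and 3.60 in lung, with no overlap (difference 1.29, 95% interval 0.60 to 1.99). Ebi3, a subunit of interleukins 27 and 35, was well above background on 2 intestine arrays and no lung array. The most abundant cytokine genes differed by less than their spread: Ifng averaged 4.42 ± 1.20 in intestine and 4.77 ± 0.93 in lung and Ltb averaged 4.87 ± 1.01 in intestine and 5.50 ± 0.46 in lung (SD, n = 5 each). Of the 8 tested cytokines 6 were higher and 2 lower. Of 8 tested chemokines 3 were higher and 5 lower, with Ccl5 at 5.06 ± 1.51 in intestine and 5.22 ± 0.82 in lung and Cxcl11 at 7.20 ± 0.61 in intestine and 7.39 ± 0.46 in lung (SD, n = 5 each).

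Of 12 tested costimulatory and activation receptors 3 were higher and 1 lower in intestine at an unadjusted p under 0.05 (against 1.94% and 2.91% of all genes). Tnfrsf4, which encodes OX40, had 5.59, 5.22, 7.32, 4.32 and 5.76 in intestine, against 3.67, 4.43, 4.05, 2.36 and 2.32 in lung. Intestine array 4 was just below the highest lung array, and the difference was 2.28 (95% interval 1.02 to 3.54, adjusted p = 0.374). Tnfrsf18, which encodes GITR, was higher on all 5 slides by 1.13 on average. Cd27, the receptor for CD70, had -1.01, -1.30, -0.81, -0.51 and 0.93 in intestine, against -0.20, 0.14, 0.83, 0.31 and 0.90 in lung, a difference of -0.93. Cd38, an ectoenzyme that consumes NAD, had 0.43, 0.63, -0.54, -0.027 and -0.20 in intestine, against -1.33, -0.83, -0.60, -1.30 and -1.12 in lung, with no overlap. Whatever the p, 5 genes of this list were higher and 7 lower, and the adhesion receptors Cd2 and Cd6 differed by -0.78 and -0.31.

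Of 14 tested inhibitory receptors and ligands 6 were higher and 8 lower in intestine, and 1 was higher at an unadjusted p under 0.05 (against 1.94% of all genes). This was Pdcd1lg2, the PD-1 ligand PD-L2, at 1.16, 1.00, 2.81, 0.98 and 2.82 in intestine, against -0.11, 0.88, 0.54, -1.38 and -2.50 in lung, with no overlap and a difference of 2.27, and a second probe gave 2.48. Pdcd1, which encodes PD-1, averaged 5.93 ± 0.65 in intestine and 6.07 ± 0.38 in lung, and Ctla4 averaged 4.44 ± 0.41 in intestine and 4.82 ± 0.59 in lung (SD, n = 5 each). Among 18 tested cytokine receptor chains, Il21r, the receptor for interleukin 21, had 2.21, 1.35, 2.62, -0.50 and 2.30 in intestine, against -0.10, -0.64, 0.44, -1.99 and -1.002 in lung, higher in intestine on all 5 slides (difference 2.26). Il1r2, the decoy receptor for interleukin 1, was high on intestine arrays 1 and 2 only, at 3.43, 3.30, -0.59, -2.46 and -1.28 in intestine, and was at least 2.03-fold higher. Il2rb, a chain of the receptors for interleukins 2 and 15, averaged 6.53 ± 0.54 in intestine and 6.83 ± 0.19 in lung. Ifngr1, a chain of the interferon gamma receptor, had 6.22, 7.50, 5.86 and 6.56 on 4 intestine arrays, its spot on intestine array 1 being left out as non-uniform, against 6.21, 6.39, 6.06, 5.40 and 6.13 in lung.

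**Figure D4:**
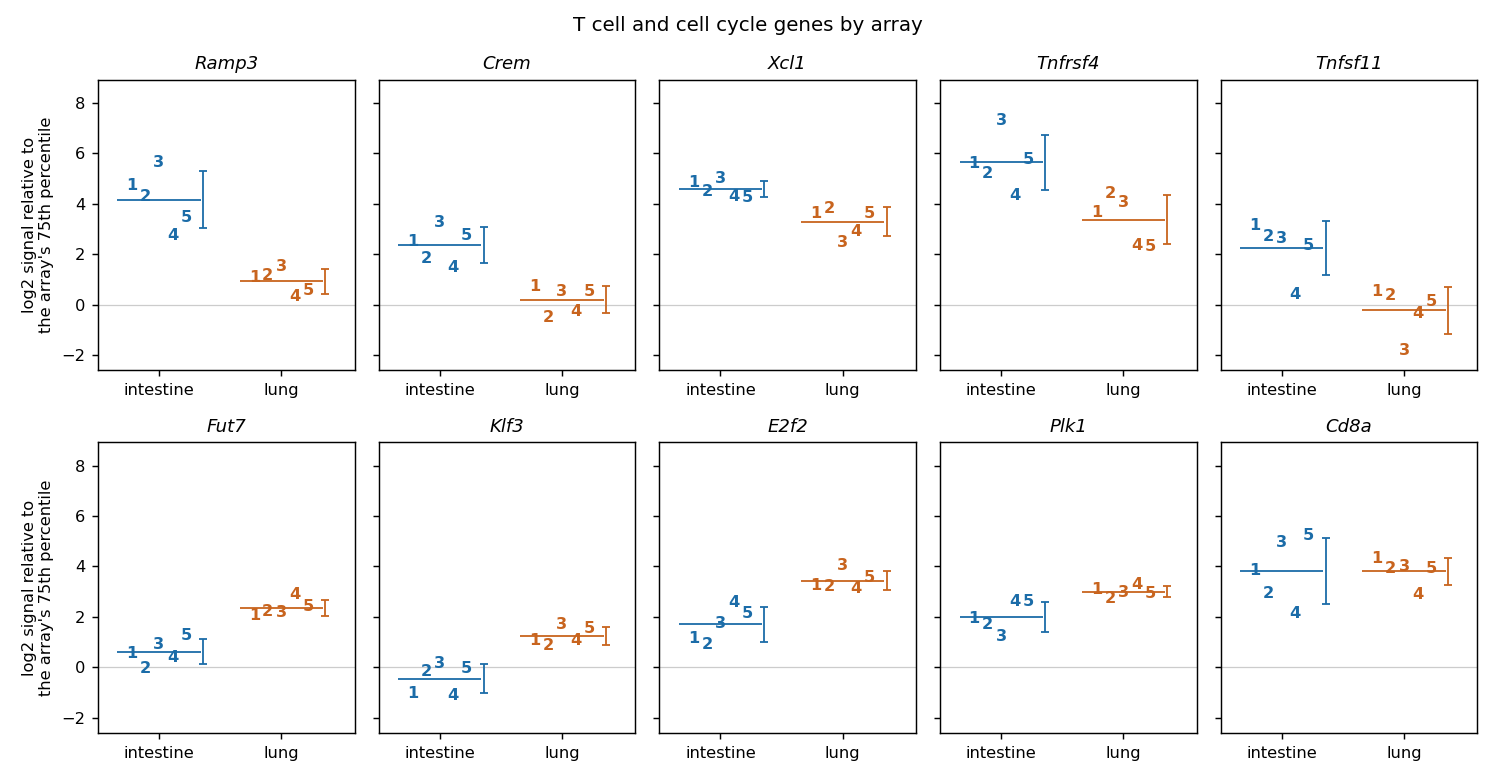
Log2 signal relative to each array's 75th percentile for 10 genes, with intestine left of lung. Each digit is 1 array, the line is the mean and the bar 1 SD (n = 5). Ramp3, Crem and Xcl1 were higher and Fut7, Klf3, E2f2 and Plk1 lower on every intestine array than on any lung array, while Cd8a overlapped.

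Transcription factors differed in both directions. Klf3, a repressor that restrains genes of lymphocyte trafficking and adhesion, had -1.04, -0.17, 0.15, -1.11 and -0.055 in intestine, against 1.05, 0.85, 1.70, 1.07 and 1.55 in lung, with no overlap (difference -1.69, 95% interval -2.40 to -0.98, adjusted p = 0.221). Zbtb32, a repressor induced in activated lymphocytes, had 3.84, 2.68, 3.31, 2.27 and 4.39 in intestine, against 5.35, 4.76, 4.69, 4.18 and 4.98 in lung, lower in intestine on all 5 slides. Irf4, a factor scaled by the strength of T cell receptor signals, had 0.028, -1.34, -0.63, -1.64 and 2.33 in intestine, against 2.04, 2.14, 2.31, 0.32 and 1.05 in lung. Intestine array 5 was the highest of the 10 arrays for Irf4, the other 4 intestine arrays were below every lung array, and the difference was -1.82. Nr3c1, the glucocorticoid receptor, had a difference of -1.75. Bcl6, the repressor of follicular helper and memory cells, had 1.98, 1.96, 2.57, 0.52 and 2.84 in intestine, against 0.60, 1.14, 0.052, 0.53 and 0.61 in lung, a difference of 1.39, and Zeb1, a factor of memory T cells, differed by 1.78. Of 24 tested factors 2 were higher and 4 lower at an unadjusted p under 0.05 (against 1.94% and 2.91% of all genes). The abundant Stat3 averaged 5.18 ± 0.74 in intestine and 4.45 ± 0.34 in lung and Tbx21, which encodes T-bet, averaged 5.62 ± 0.41 in intestine and 5.95 ± 0.42 in lung (SD, n = 5 each).

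No difference in genes of cytotoxic molecules was larger than the spread. None of 15 tested members came under an unadjusted p of 0.05, 7 were higher and 8 lower, and the median was -0.089. Gzma, granzyme A, averaged 6.61 ± 0.52 in intestine and 6.70 ± 0.088 in lung (SD, n = 5 each, difference -0.089, 95% interval -0.71 to 0.53). Gzmb, granzyme B, had 5.16, 3.78, 6.20, 3.38 and 5.89 in intestine, against 5.93, 5.53, 5.38, 3.21 and 3.96 in lung, a difference of 0.079 (95% interval -1.37 to 1.53). Nkg7, a granule membrane protein, averaged 6.80 ± 0.55 in intestine and 7.17 ± 0.30 in lung (SD, n = 5 each). Of 16 tested genes of the T cell receptor complex and its kinases 11 were lower (against 64.8% of all genes) and 5 higher, with Lck at a difference of -0.31. Ptpn6, which encodes the phosphatase SHP-1, differed by -0.93 and was the only one of the 16 with an unadjusted p under 0.05 (against 4.85% of all genes). Among killer lectin-like receptors Klrd1 and Klrc1, which together form CD94 and NKG2A, differed by -0.58 and 0.61, and Klre1, at -0.92, was well above background on 1 array of each organ. In genes of the TGF-beta response, which drives residency in epithelium, Skil, a feedback repressor, was higher on all 5 slides by 0.96 on average, while Smad2 and Tgif1 differed by -0.51 and 0.55. The aryl hydrocarbon receptor targets Ahrr and Tiparp differed by -0.46 and 0.068.

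Genes of the NF-kappaB pathway, through which T cell receptor, costimulation and TNF receptors act, were on the higher side in intestine. Of 15 tested members 13 were higher, 14 were above the median of all genes, and 4 were higher at an unadjusted p under 0.05 (against 1.94% of all genes). The list median was 0.50, which is 0.63 above the median of all genes, and lay above it on all 5 slides. Under 5 other scalings, which moved the median of all genes to as much as 0.07, between 13 and 15 of the 15 were above it. Nfkbie, an inhibitor that is itself a target of the pathway, had 3.43, 3.03, 2.65, 0.60 and 2.67 in intestine, against 1.32, 1.03, -0.049, -0.59 and -0.059 in lung, with intestine array 4 below the other 4. Nfkb2 and Relb, the subunits of the alternative pathway, had differences of 1.65 and 1.41, and a second probe of Relb gave 1.31. Tnip1, a brake on the pathway, differed by 1.05. All 4 had an adjusted p of at least 0.374.

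Genes of the unfolded protein response showed a smaller shift in the same direction. Of 12 tested members 11 were higher in intestine (against 35.2% of all genes), with a median of 0.34, and 0.26 with bounds. Under every scaling 11 or 12 were above the median of all genes, and 1 was higher at an unadjusted p under 0.05 (against 1.94%). This was Herpud1, a membrane protein of the endoplasmic reticulum that assists in protein degradation, at 4.22, 4.34, 4.09, 2.25 and 3.81 in intestine, against 2.43, 2.40, 1.09, 1.58 and 1.29 in lung. It was called in the fit of all 24 arrays (adjusted p = 0.0289, adjusted p 0.0168 to 0.759 over 24 alternatives). The summed levels of the Paneth and plasma cell lists, secretory cells rich in endoplasmic reticulum, were each above every lung array on 3 of the 5 intestine arrays, and their part in this difference was not tested. Among 20 tested genes of the ATF4 response and amino acid handling, Chac1, which degrades glutathione, had 0.69, 0.28, 0.44, 0.76 and -3.84 in intestine, against -2.65, -3.02, -2.16, -2.01 and -2.58 in lung, with intestine array 5 below every lung array, and was at least 1.15-fold higher. Slc3a2, the heavy chain of amino acid transporters, was higher on all 5 slides by 1.11 on average, and Trib3, a pseudokinase, differed by 0.91.

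Genes of dividing cells were on the lower side in intestine. All 29 tested DNA replication genes had a negative difference, from -0.79 to -0.0013, with a median of -0.40, and 27 of them were below the median of all genes. Under the other scalings 26 or 27 of the 29 were below that median. On slides, the list median was below that of all genes on 4 of 5. Of the 29, 3 were lower at an unadjusted p under 0.05, against 2.91% of all genes: Pold1, the catalytic subunit of DNA polymerase delta, by 0.73, Rrm2, a subunit of ribonucleotide reductase, by 0.79, and Uhrf1, which maintains DNA methylation, by 0.72.

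Mitosis genes showed the same sign. Of 26 tested members 23 were lower in intestine, with a median of -0.56, 22 were below the median of all genes under every scaling, and 6 were lower at an unadjusted p under 0.05, against 2.91% of all genes. The list median was below that of all genes on 4 slides, by 1.19, 0.94, 0.71 and 0.034, and above it by 0.70 on slide 5. Plk1, a kinase of mitotic entry, had 1.92, 1.70, 1.24, 2.61 and 2.61 in intestine, against 3.08, 2.73, 2.98, 3.30 and 2.94 in lung, the only one of the 26 with no overlap (against 0.904% of all genes). Cdc20, which activates the anaphase-promoting complex, had 3.53, 3.26, 3.62, 3.84 and 4.55 in intestine, against 5.04, 4.82, 5.01, 4.15 and 4.85 in lung, lower in intestine on all 5 slides. The kinesins Kif22 and Kif20a differed by -1.51 and -0.80, cyclin A2 (Ccna2) by -0.87 and Aurora kinase A (Aurka) by -0.66. E2f2, a transcription factor of the entry into S phase, had 1.15, 0.91, 1.75, 2.55 and 2.15 in intestine, against 3.23, 3.22, 4.03, 3.14 and 3.57 in lung, with no overlap (difference -1.74, 95% interval -2.51 to -0.97, adjusted p = 0.221).

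**Figure D5:**
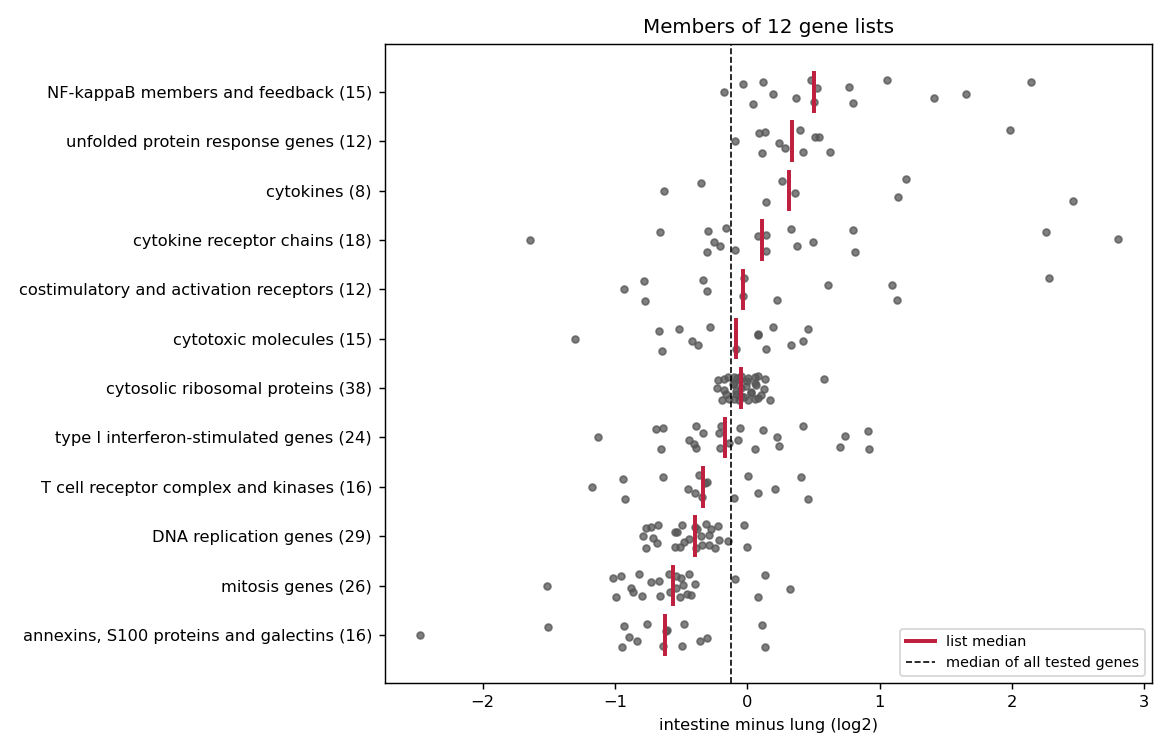
Log2 difference (intestine minus lung) of every tested member of 12 gene lists, 1 point per gene, with the number tested in parentheses. Red bars are list medians and the dashed line is the median of all genes, -0.12. The NF-kappaB median of 0.50 lies to the right of it and the medians of DNA replication (-0.40), mitosis (-0.56) and annexin (-0.62) genes to the left.

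Annexins, S100 proteins and galectins, calcium- and sugar-binding proteins that effector T cells and myeloid cells both express, were also on the lower side. Of 16 tested members 14 were lower in intestine, against 64.8% of all genes, with a median of -0.62. At an unadjusted p under 0.05, 5 of them were lower, against 2.91% of all genes, and the list median was below that of all genes on all 5 slides. Anxa1 had 0.60, 1.86, -0.50, 0.61 and 2.06 in intestine, against 3.26, 3.34, 0.93, 4.89 and 4.59 in lung. Lung array 3 was the lowest lung array and the others were above all intestine arrays, as for the macrophage genes. Anxa2 differed by -0.63, S100a6 by -0.93, Lgals3 by -0.94 and Vim, a filament protein listed with them, by -0.83. Relative to all genes, the list median was -0.64, -0.45, -0.053, -0.98 and -0.50 on slides 1 to 5. The median of the macrophage list was -0.22, -0.078, -0.49, -4.79 and -4.95, of the same sign but in another order of slides. The part of macrophage transcripts in the annexin difference was not tested.

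Of the remaining state lists, hypoxia genes had a median 0.37 above that of all genes, with 7 of 10 above it and a list median above it on all 5 slides, and ATF4 and amino acid genes a median 0.22 above it, also on all 5 slides. The 38 tested cytosolic ribosomal protein genes had a median of -0.047 and the 42 respiratory chain subunits of -0.050, with none under an unadjusted p of 0.05. Type I interferon-stimulated genes had a median of -0.17 over 24 tested members. The only one of the 24 with no overlap (against 0.904% of all genes) was Cmpk2, a mitochondrial nucleotide kinase, at 0.011, -0.035, -0.29, -0.069 and 0.53 in intestine, against 0.89, 0.80, 1.17, 1.60 and 1.34 in lung. Among 19 glycolysis genes, Hk2, the inducible hexokinase, had 2.87, 2.67, 2.11, 2.34 and 1.96 in intestine, against 1.83, 1.23, 0.50, -2.08 and -1.18 in lung, with no overlap, while the list median was -0.019. Among heat-shock genes the stress-induced Hspa1a was well above background on 3 intestine arrays and no lung array, and was at least 1.07-fold higher. Ndrg1 of the hypoxia list differed by 1.32, Bcl2l11, which encodes the death protein BIM, by 0.66, and Cd83 of the dendritic cell list by 2.28. Toward lung, Abcg1, a cholesterol exporter, differed by -2.47, Fabp5, a fatty acid-binding protein, by -0.91, and Cldn5, a tight junction protein of endothelium, by -1.41.

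Over all T cell lists 183 genes were tested, of which 16 were higher and 11 lower in intestine at an unadjusted p under 0.05 (14.8%, against 4.85% of all genes), and 6 had no overlap (3.28%, against 0.904%). Since the lists were chosen with earlier results of these data known, these shares are descriptions. Other cells' transcripts differed between the organs on some arrays and not on others, as described above. Their part in the T cell list differences was not tested.

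The 36 genes called when all 24 arrays shared the spread include genes of neither the macrophage and lung epithelial nor the intestinal lists. That spread drew on liver, blood and graft arrays, which varied less, so these calls may be too many. Higher in intestine were Slc39a4, a zinc importer, at 2.25, 2.04, 3.28, 3.03 and 2.33 in intestine, against 1.46, 0.57, 0.95, 0.53 and -0.12 in lung, Ckb, brain-type creatine kinase, at 0.71, 2.09, 1.103, 1.96 and 1.57 in intestine, against -0.26, 0.040, 0.25, 0.057 and -0.63 in lung, and Tent5a, a poly(A) polymerase, at 1.97, 1.82, 2.76, 1.11 and 0.48 in intestine, against 0.34, -0.23, -1.31, -0.67 and -0.41 in lung. None of the 3 overlapped between the groups. Npff, a neuropeptide precursor, had 2.18, 3.62, -0.80, 4.76 and -0.75 in intestine, against -1.18, -1.16, -2.01, -2.04 and -2.49 in lung, high on intestine arrays 1, 2 and 4, and was at least 5.05-fold higher. Mul1, Smim3, Rangrf, Grtp1 and Srxn1 made up the rest of the 11 with Herpud1 and Defa31. Lower in intestine, besides Fut7 and the macrophage and surfactant genes, were Kbtbd11 at 2.93, 2.80, 3.60, 2.86 and 4.89 in intestine, against 4.63, 4.79, 5.29, 4.67 and 5.16 in lung, Cyren, a regulator of DNA end joining, at -0.27, -0.22, -0.37, 0.010 and 0.067 in intestine, against 1.44, 0.56, 1.89, 1.32 and 1.63 in lung, and Crip2, a LIM domain protein, at 1.61, 1.55, 1.17, 0.55 and 0.15 in intestine, against 3.31, 3.91, 2.07, 1.83 and 2.95 in lung. A second probe of Kbtbd11 gave -1.75, but another gave -0.19. Cyb561a3, Fam53b, Sh2d3c, Flvcr2 and Kazald1 were also among the lower ones, and a second probe of Cyb561a3 differed by 0.025. Fam53b and Sh2d3c were each higher on intestine array 5 than on the other 4 intestine arrays, with -0.76, -1.57, -1.47, -2.36 and 1.92 in intestine, against 1.73, 1.68, 1.22, 1.43 and 2.10 in lung for Fam53b. Erp27, a protein of the endoplasmic reticulum, was the third gene called higher without lung array 3, beside Gjb2 and Ramp3.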

How the data were processed

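RNA from CD45.1-selected cells was amplified in 2 rounds and hybridised to 1-colour Agilent mouse arrays, of which 10 (5 small intestine, 5 lung) were compared and 24 were read. The deposited scanner files hold 1 green intensity per spot, background-subtracted and processed by Agilent Feature Extraction, version 9.5.1.1 per the file headers and 10.7 per the submitters' processing notes. The processed intensity was divided by each array's 75th percentile over gene probes and log2 was taken. The table of log2 values that the authors deposited correlated at 0.99977 or more with quantile-normalised, probe-median-centred log2 intensities of the same arrays, and served only as an alternative. Control spots and non-uniform spots were left out. Probe coordinates are mm9, per the file headers. Of the probes, 27597 were named through RefSeq accessions, 3488 by symbol, 393 by synonym and 1777 as the files named them, while 6174 had no name.

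A gene was tested if a probe was well above background on all but at most 1 array of any of the 5 groups, as 11345 probes were. Each gene was represented by its brightest probe on average. The 9509 genes were compared with limma 3.58.1 in R 4.3.3 (lmFit and eBayes) with Benjamini-Hochberg adjustment, and a gene was called at an adjusted p under 0.05. The script was tested on simulated data. The labels do not describe the samples as separate animals, so p-values reflect sample-to-sample spread alone, which may be technical.

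The rule for named genes took called genes (of which there were none), the 2 members of highest mean of each T cell list, the defining markers of other cells and CD8 check genes, and genes of counts of 5 or fewer. Other genes were chosen after their values were seen. The members of all lists were chosen with earlier results of these data known. Replicate numbers coincided with slides: the deviations of same-numbered intestine and lung arrays correlated at 0.22, 0.14, 0.39, 0.57 and -0.16, so the block was kept as an alternative. The alternatives were 5 other scalings or background corrections (the deposited table among them), other filters, the mean of a gene's probes, the slide as a block, array weights, all 24 arrays in 1 fit, and each array left out in turn. The fits of all 24 arrays with the slide as a block, or without the 2 arrays numbered 4, were added after seeing the data.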

Additional observations from a re-analysis of the deposited data

Results flagged for a closer look

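In 338 groups of 5 arrays, formed by the named genes and the summed marker lists in each organ, 23 had 1 array far from the other 4 (6.80%), where chance flags about 1 in 20. The arrays numbered 4 account for 11 of them and are the pair with the highest values on the first principal component. Intestine array 5, with the lowest value there, accounts for 8. On intestine array 4, Herpud1 was 2.25, against 3.81 to 4.34 on the other intestine arrays, Litaf 3.12 against 4.85 to 5.42, Nfkbie 0.60 against 2.65 to 3.43, Zeb1 -2.20 against 0.92 to 1.98 and Fabp5 0.99 against 2.60 to 3.15. The same array was high for Notch1, at 5.91 against 4.21 to 4.68, and for Smad2, at 5.08 against 3.78 to 4.12. Lung array 4 was low for Cd8a, at 2.89 against 3.93 to 4.31 on the other lung arrays, for Nr3c1, at 0.24 against 1.63 to 2.02, for Cdc20, at 4.15 against 4.82 to 5.04, and for Uhrf1, at 2.61 against 3.47 to 3.81.

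Intestine array 5 was low for Chac1, at -3.84 against 0.28 to 0.76 on the other intestine arrays. It was also low for 4 genes that were not well above background on any intestine array, Krt79 (-3.90), Lpl (-4.02), Atp6v0d2 (-3.98) and Sftpa1 (-3.85), where the level is only a bound. For the macrophage gene Chil3 it was high, at 1.80 against -2.94 to -2.41, and so was the neutrophil gene S100a8, at -1.06 against -2.75 to -2.41. Its summed mast cell, eosinophil and basophil markers had a log2 of 1.53, against 2.48 to 2.73.

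Lung array 3 was low for Chil3, at -2.16 against 6.50 to 8.24 on the other lung arrays, and for Ear2, at -2.01 against 5.05 to 7.32. Its summed erythroid markers were high, with a log2 of 6.26 against 1.44 to 2.48. Lung array 1 was low for Tiparp, at -0.080 against 1.29 to 1.83.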

How the results depend on the processing

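The count of called genes, 0 with the 10 arrays, moved with several choices, and the causes were not tested beyond what each setting itself changes. It was 36 with all 24 arrays in 1 fit, 41 when the slide was added there as a block, and 19 without both arrays numbered 4. With the replicate number as a block in the 10-array fit it was 1, and with both arrays numbered 4 left out it was 1. It was 2 after scaling to the median of well-detected probes, 4 after quantile normalization, 4 in the deposited table, 1 with a filter on all 10 arrays and 1 with no filter. Array weights gave 710 genes, 310 higher and 400 lower in intestine, in a fit that did not converge and weighted intestine array 1 by 13.2. Leaving out each array in turn gave between 0 and 37 genes, with 13 higher and 0 lower without intestine array 4, and between 332 and 718 genes at an unadjusted p under 0.05. The genes called without intestine array 5 and those called in the fit of all 24 arrays had 6 in common, which is 16.2% of the 37 and 16.7% of the 36. With lung array 3 left out, 16 genes were shared with the fit of all 24 arrays, 72.7% of the 22 and 44.4% of the 36. Of 152 named genes, 137 kept their sign under all of their alternatives, and 54 were called under none. Many of these genes were chosen after their values were seen, and the alternatives reuse the same arrays, so a kept sign is no separate evidence. Of the 98 called under at least 1 alternative, 47 were called with array weights alone. In the 10-array fit the block changed no other call than that of Ramp3, while in the fit of all 24 arrays 31 genes were called both with and without it. At an unadjusted p under 0.05 the 10-array count of 461 was 774 with the replicate block. The median of all genes lay between -0.12 and 0.07 over the scalings. Signals near background give only a bound, which limits the macrophage and Paneth cell genes in particular, and 5 arrays per organ with unequal spread limit the rest.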
